A study of Mus musculus with 4 samples.

Results

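The 10 genes followed here belong to the axonal membrane and its ankyrin scaffold, in cultured mouse cortical neurons and astrocytes: L1cam, Chl1, Nrcam and Nfasc of the L1 family, the contactins Cntn1 and Cntn2, the contactin-associated proteins Cntnap1 and Cntnap2, and the ankyrins Ank2 and Ank3. They are 10 of 18193 genes with a probe set of their own. They were read through all probe sets that the platform annotation ties to 1 of these symbols and to no other gene, 36 of the 45037 that measure transcripts. A probe set is a group of short probes on the array that together read 1 stretch of a transcript. The study compared 2 arrays of neuron cultures with 2 arrays of astrocyte cultures, labelled as biological replicates, all from cerebral cortex of C57BL6 mice. Neurons came from fetuses at day 16 of gestation and were kept in a low-serum medium (1% fetal calf serum; glucose at 19.4 mM, glutamine at 4 mM) with progesterone, putrescine, transferrin, insulin and selenite added. Astrocytes came from newborn animals and were kept in a richer one (fetal calf serum at 10%, glucose at 33 mM, glutamine at 2 mM). The series text gives 7 days in culture for neurons and 20 days for astrocytes, whereas the protocol text gives a single shorter period for all assays. Cell type, donor age, medium and time in culture changed together and cannot be told apart.

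The L1 family are transmembrane adhesion molecules with immunoglobulin and fibronectin domains outside the cell and a short tail that binds ankyrin. Contactins have the same kinds of outer domains but are held to the membrane by a lipid anchor, and they pair with the contactin-associated proteins, which reach the cytoskeleton through band 4.1 proteins. Ankyrins join these adhesion molecules and ion channels to the spectrin mesh under the membrane. Together they build the axon initial segment and, in myelinated axons, the node of Ranvier and the zones beside it. Some members are also made by glia: neurofascin has a form in oligodendrocytes, and Chl1 and Cntn1 are expressed in glial cells as well as in neurons.

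The 9 members that could be tested were higher in neurons, but by very different amounts. L1cam, Ank3 and Cntn1 differed 34.9-fold, 28.8-fold and 21.0-fold, whereas Chl1 differed 4.93-fold, Nrcam 2.76-fold, Nfasc 2.48-fold, Ank2 2.31-fold and Cntnap2 1.37-fold. Cntn2 was at least 3.28-fold higher in neurons, from dim signals. Cntnap1 was too dim to be tested. Each gene was read by its brightest probe set among those with at least 2 of 4 arrays at or above the array's median, signals were compared as log2(signal + offset), where the offset is the median of the arrays' 25th percentiles, and a gene was called at an adjusted p under 0.05 in limma. Among all 12040 genes tested, 31.0% were called with more signal in neurons and 31.1% with more in astrocytes, while the groups did not overlap in 81.9%. For the 9 members the groups did not overlap either. Cntn2 passed the filter through the neuron arrays alone, so its direction was set by the filter; the other 8 had at least 1 array of each group at the median. The fold of L1cam was larger than that of 99.3% of genes, Ank3 exceeded 99.1%, Cntn1 98.7%, Chl1 93.6%, Nrcam 87.7%, Nfasc 86.0%, Ank2 84.8% and Cntnap2 68.8%; Cntn2 is given no rank, since its astrocyte signal was not above background.

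**Figure D1:**
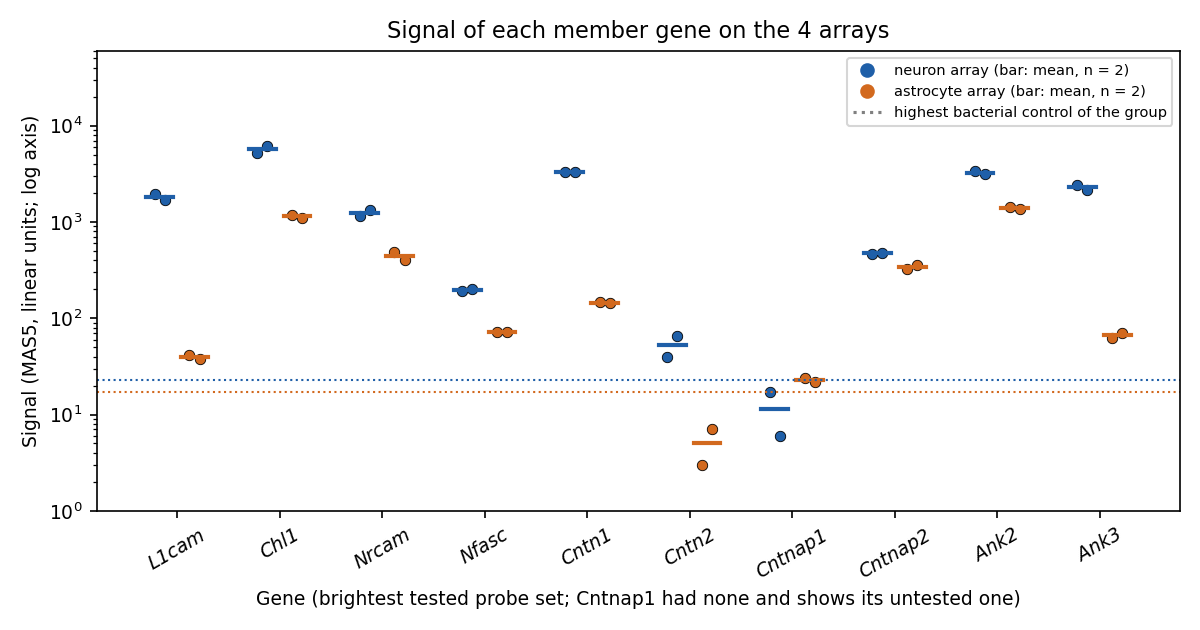
Signal of each member gene on the 2 neuron arrays (blue) and the 2 astrocyte arrays (orange), on a log axis, with the group mean as a bar and each group's highest Bacillus subtilis control as a dotted line. L1cam lay at 1955 and 1691 in neurons and 42 and 38 in astrocytes, while Ank2 and Chl1 read 1092 or more on every array, and Cntnap1 lay near the control lines.

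At the level of probe sets, 24 of the 36 passed the filter on dim signals. Of these, 20 were called as higher in neurons and 0 in the other direction, where 29.4% and 27.7% of the 25019 kept probe sets were. In limma, 0 member probe sets were higher in astrocytes at an unadjusted p under 0.05 as well. In 3 of the 24 no astrocyte array reached its median, so that they passed on the neuron arrays alone: the Cntn2 one, the dimmest of Nfasc and the dimmest tested of Ank3. Probe sets of 1 gene often differed from each other in fold, and the intervals below show by how much. Where each probe set lies along its transcript was not analysed here. Signals of different member probe sets were not compared as levels, since probes differ in brightness.

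**Figure D2:**
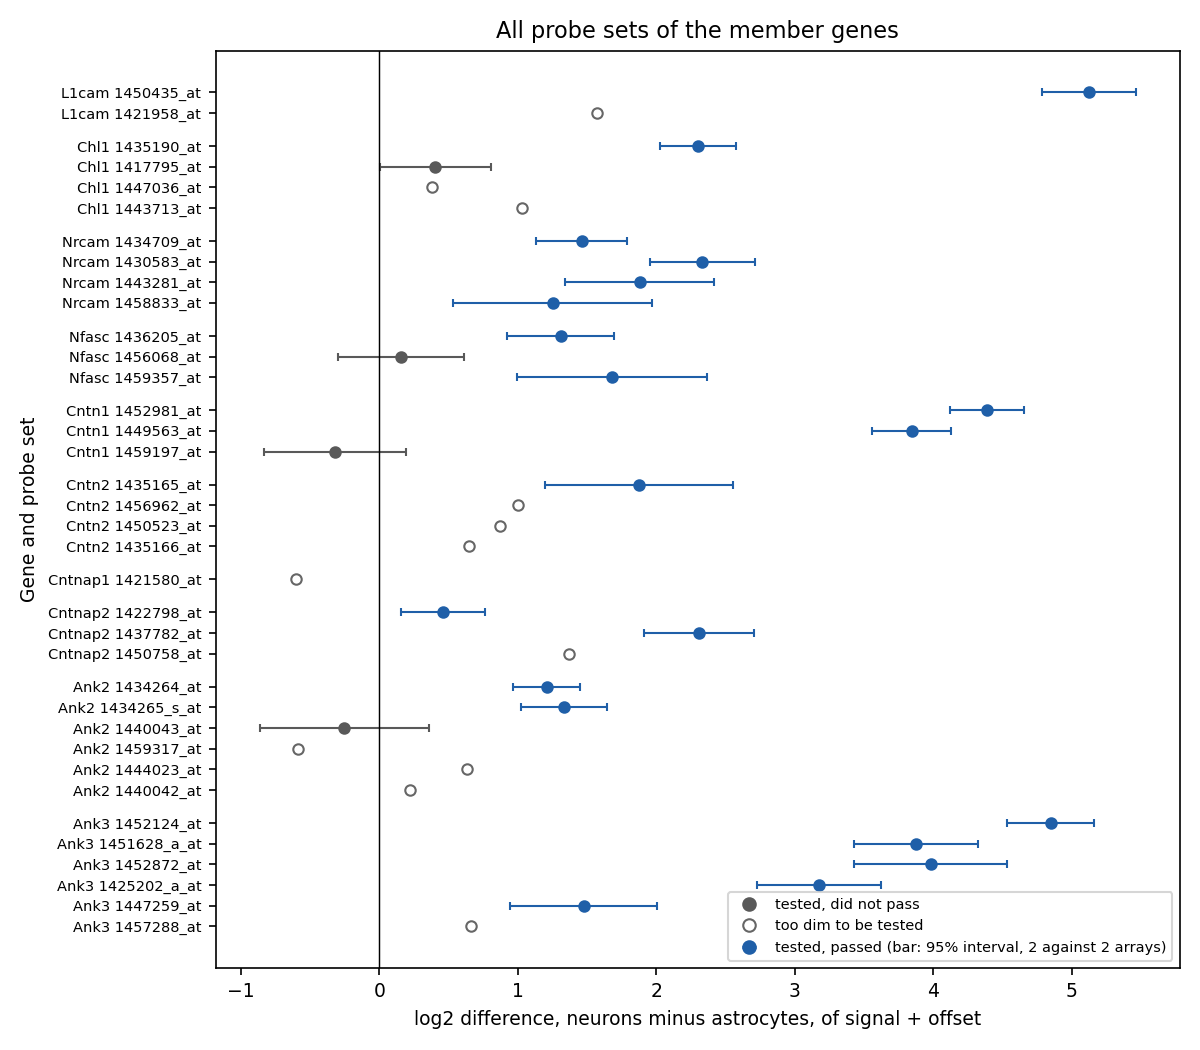
Difference between neurons and astrocytes on the log2 scale with the offset for all 36 probe sets, grouped by gene. Filled points were tested and carry a 95% interval (blue passed, grey did not), and open points were too dim to be tested. The 5 tested Ank3 probe sets ran from 1.48 to 4.85, and the 4 tested ones that were not called, of Chl1, Nfasc, Cntn1 and Ank2, lay from -0.32 to 0.41.

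The stretch around the annotated start of 4 members is shown because, by the brightest probe set, L1cam and Cntn1 had large folds and Cntnap2 and Ank2 the smallest. With a gene's probe sets averaged, Ank2 had 0.76 on the log2 scale, Nfasc 1.05, Chl1 1.35 and Cntnap2 1.38, so the place of Cntnap2 at the low end rests on the choice of probe set. Sequences are from RefSeq (mouse, GRCm38.p6), 250 bases before to 50 after the start, 5′ to 3′ on the gene's strand. Capitals mark the GC box GGGCGG, the CCAAT box CCAAT and the TATA box TATAAA, searched on both strands; no matches overlapped within these windows.
L1cam, chrX:73880785-73881084, minus strand: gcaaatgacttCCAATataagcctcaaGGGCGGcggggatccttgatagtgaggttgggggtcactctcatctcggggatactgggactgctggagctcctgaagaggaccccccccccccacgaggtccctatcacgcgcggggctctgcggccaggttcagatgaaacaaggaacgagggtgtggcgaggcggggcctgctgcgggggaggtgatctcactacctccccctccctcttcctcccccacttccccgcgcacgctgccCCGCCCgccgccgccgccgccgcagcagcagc
Cntn1, chr15:92050915-92051214, plus strand: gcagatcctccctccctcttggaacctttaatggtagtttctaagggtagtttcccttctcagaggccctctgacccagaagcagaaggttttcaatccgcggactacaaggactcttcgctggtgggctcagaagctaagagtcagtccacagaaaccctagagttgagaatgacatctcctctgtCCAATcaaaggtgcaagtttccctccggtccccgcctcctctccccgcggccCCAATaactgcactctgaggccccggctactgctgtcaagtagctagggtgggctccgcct
Cntnap2, chr6:45059811-45060110, plus strand: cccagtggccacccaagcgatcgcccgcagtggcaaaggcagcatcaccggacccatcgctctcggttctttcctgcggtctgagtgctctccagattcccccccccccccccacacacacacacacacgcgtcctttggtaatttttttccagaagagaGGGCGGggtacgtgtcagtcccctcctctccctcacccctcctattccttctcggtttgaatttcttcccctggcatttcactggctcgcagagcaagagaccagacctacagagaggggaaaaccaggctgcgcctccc
Ank2, chr3:127499066-127499365, minus strand: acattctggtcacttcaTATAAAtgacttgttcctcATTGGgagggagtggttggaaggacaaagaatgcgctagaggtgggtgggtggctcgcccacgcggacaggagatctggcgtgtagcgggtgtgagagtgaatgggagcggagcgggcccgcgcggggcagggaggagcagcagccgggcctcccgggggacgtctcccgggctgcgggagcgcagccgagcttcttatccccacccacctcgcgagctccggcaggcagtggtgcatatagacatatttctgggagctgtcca

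RefSeq windows were found for 8 of the 10 members, all but Cntnap1 and Ank3, taking the most upstream window where a gene had several. The GC box was in the windows of L1cam (2 matches), Nrcam (2), Nfasc (1) and Cntnap2 (1), and in 35.9% of the 27025 genes with a window. A CCAAT box was in those of L1cam (1), Cntn1 (2) and Ank2 (1), and in 38.0% of all. The TATA box was in that of Ank2 alone among the 8, starting at base 18 of its 300, and in 14.2% of all. G and C made up 67.0% of the L1cam window, 55.3% of that of Cntn1, 59.7% of that of Cntnap2 and 62.7% of that of Ank2, beside a median of 52.7%. The matches are a description of the letters and not of binding.

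L1cam, the founding member of its family and an adhesion molecule of growing axons, had signals of 1955 and 1691 in neurons and 42 and 38 in astrocytes. The groups were far apart, and both astrocyte arrays still lay above their highest Bacillus subtilis controls of 17 and 15. Its log2 fold change was 5.13 ± 0.15 (standard error, n = 2 per group here and below; adjusted p = 1.35e-07), with a 95% interval from 4.79 to 5.46, and 4.38 with an offset of 50. Its other probe set was dim, at 31 and 44 in neurons and 8 and 1 in astrocytes.

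Chl1, the close homologue of L1, had signals of 5224 and 6146 in neurons and 1191 and 1092 in astrocytes. By this probe set Chl1 read well above background in the astrocyte cultures, whose highest controls were 17 and 15. Its log2 fold change was 2.30 ± 0.12 (adjusted p = 1.18e-06), with an interval from 2.03 to 2.57 that lies below that of L1cam; the difference between the members was not itself tested. A second probe set of Chl1 read 219 and 269 in neurons and 199 and 163 in astrocytes and missed the threshold (0.41 ± 0.18, adjusted p = 0.0788). With all kept probe sets averaged, the log2 fold change of Chl1 was 1.35, against 2.30 by the brightest. The other 2 probe sets of Chl1 were dim, at 45 or less on every array.

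Nrcam, an adhesion molecule that gathers with neurofascin at initial segments and nodes, had 4 tested probe sets, with log2 fold changes from 1.25 to 2.33. Its brightest read 1157 and 1323 in neurons and 487 and 399 in astrocytes, a log2 fold change of 1.46 ± 0.14 (adjusted p = 4.09e-05). A probe set of like signal in neurons, at 1289 and 1264, read 287 and 206 in astrocytes and gave 2.33 ± 0.17 (adjusted p = 6.24e-06), or 5.04-fold. A further one read 298 and 198 against 66 and 49, with 1.88 ± 0.23 (adjusted p = 0.000176). All 4 probe sets of Nrcam were called higher in neurons. The dimmest, at 75 and 94 against 17 and 43, had 1.25 ± 0.31 (adjusted p = 0.00849), and this call was lost when either neuron array or astrocytes replicate 1 was left out (adjusted p from 0.0798 to 0.167) and when the filter was (adjusted p = 0.0598).

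Nfasc, which encodes neurofascin, the adhesion molecule that organises initial segments and nodes, had modest signals in both cultures. The brightest probe set read 193 and 201 in neurons and 72 on both astrocyte arrays, a log2 fold change of 1.31 ± 0.17 (adjusted p = 0.000215). Another read 54 and 84 against 8 and 18, with 1.68 ± 0.30 (adjusted p = 0.00143), a call lost when neurons replicate 2 (adjusted p = 0.0605) or astrocytes replicate 1 (0.0522) was left out. The last read 86 and 71 in neurons and 70 and 68 in astrocytes and did not pass (0.15 ± 0.20, interval from -0.30 to 0.61, adjusted p = 0.537). The 3 probe sets of Nfasc therefore gave different answers, and which neurofascin form each reads is not known here.

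Cntn1, the contactin of nodes and of the zones beside them and a partner of Cntnap1, had nearly the same signal on both arrays of each group. It read 3294 and 3303 in neurons and 146 and 145 in astrocytes, a log2 fold change of 4.39 ± 0.12 (adjusted p = 1.10e-07), with an interval from 4.12 to 4.66. A second bright probe set, at 2353 and 2170 against 149 and 142, gave 3.85 ± 0.12 (adjusted p = 1.63e-07). Both bright probe sets of Cntn1 thus read a difference of more than 14-fold (21.0-fold and 14.4-fold). The third was dim, at 44 and 41 in neurons and 64 and 49 in astrocytes, and did not pass (-0.32 ± 0.22, adjusted p = 0.255); with all 3 averaged the log2 fold change was 2.64.

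Cntn2, the contactin TAG-1, which pairs with Cntnap2 beside the nodes of myelinated axons, was dim in both cultures. Its brightest probe set read 40 and 65 in neurons, above their controls of 21 and 23, and 3 and 7 in astrocytes, below theirs. It was at least 3.28-fold higher in neurons when astrocytes are set to their mean control signal of 16.0 (adjusted p = 0.000719). Its log2 fold change was 1.88 ± 0.30, and 3.20 with an offset of 1 or 0.89 with an offset of 50 in its place. Its other 3 probe sets read 31 or less on every array.

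Cntnap1 and Cntnap2 encode Caspr and Caspr2, which sit beside nodes with Cntn1 and Cntn2. The single probe set of Cntnap1 read 17 and 6 in neurons and 24 and 22 in astrocytes, not above the controls in neurons and just above them in astrocytes. It failed the filter; tested without the filter it had a log2 fold change of -0.60 (adjusted p = 0.221). A difference in Cntnap1 was not detectable at this signal.

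Cntnap2 was read differently by its probe sets. The brightest, at 470 and 473 in neurons and 325 and 355 in astrocytes, gave the smallest fold of the tested members (0.46 ± 0.13, adjusted p = 0.0167). That call was lost with any 1 array left out (adjusted p from 0.0619 to 0.102) and with each array centred on its median (0.35, adjusted p = 0.0625). A second probe set read 297 and 273 in neurons and 50 and 45 in astrocytes. It gave 2.31 ± 0.17 (adjusted p = 8.62e-06), a 4.96-fold difference, and kept its call with any 1 array left out. The intervals, 0.16 to 0.76 and 1.91 to 2.71, do not meet, so the 2 probe sets of Cntnap2 read differences of unlike size; this was not itself tested. The brightest probe set and the remaining one, which was dim, carry the same accession in the platform annotation.

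Ank2 and Ank3 encode ankyrin-B and ankyrin-G, of which the former lies along the axon and in many other cells and the latter organises the initial segment. Ank3 read 2393 and 2166 in neurons and 63 and 71 in astrocytes. Its log2 fold change was 4.85 ± 0.14 (adjusted p = 1.35e-07), with an interval from 4.53 to 5.16. Of its 6 probe sets 5 were tested and all 5 were called higher in neurons. The others read 1444 and 1627 against 116 and 74 (3.87 ± 0.20), 537 and 625 against 17 and 35 (3.98 ± 0.24), 446 and 594 against 51 and 41 (3.18 ± 0.19) and 60 and 68 against 16 and 14 (1.48 ± 0.23). The last one was not above background in astrocytes, which makes it at least 4.00-fold higher in neurons; it passed the filter through the neuron arrays alone. The sixth was too dim to be tested, at 27 and 51 against 15 and 24. The 4 brighter probe sets of Ank3 thus read differences from 9.05-fold to 28.8-fold. The value of the gene depends on which of them reads it: without neurons replicate 1 or 2 another became the brightest and the log2 fold change was 3.96 or 3.79, and it was 3.47 with the probe sets averaged. The probe set behind 4.85 itself kept between 4.78 and 4.92 with 1 array left out.

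Ank2 read 3377 and 3145 in neurons and 1439 and 1367 in astrocytes, a log2 fold change of 1.21 ± 0.11 (adjusted p = 2.20e-05). A second bright probe set, at 3410 and 2991 against 1403 and 1127, gave 1.34 ± 0.14 (adjusted p = 5.29e-05). Both cultures therefore held clear Ank2 signal, and the interval of its fold, 0.97 to 1.45, lies well below that of Ank3; the difference between the ankyrins was not itself tested. Another probe set, at 31 and 41 in neurons and 57 and 35 in astrocytes, overlapped between the groups and did not pass (-0.25 ± 0.27, adjusted p = 0.451). The other 3 probe sets of Ank2 read 28 or less on every array.

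**Figure D3:**
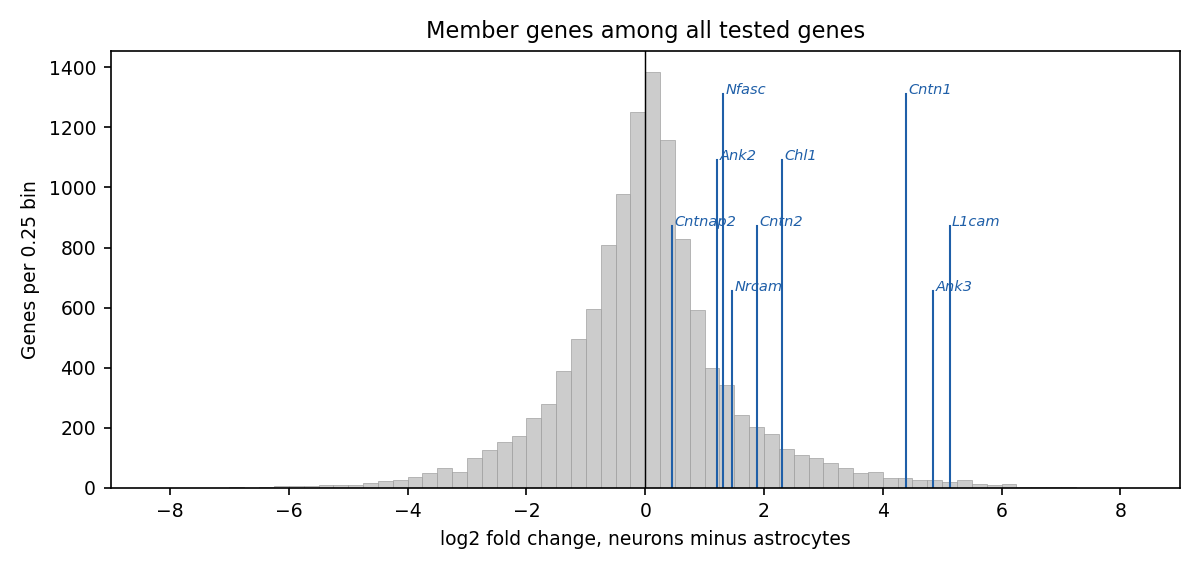
Log2 fold change, neurons minus astrocytes, of the 12040 tested genes in bins of 0.25 (grey bars, number of genes), with the 9 tested members as blue lines. L1cam (5.13), Ank3 (4.85) and Cntn1 (4.39) stand in the right tail, and Cntnap2 (0.46) lies within the central bulk; line heights only separate the names.

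The genes nearest to L1cam across the 4 arrays, by Euclidean distance of centred log2 values, were Cdh13 (distance 0.13), Gad1 (0.16) and Opcml (0.17). Cdh13 encodes a cadherin held by a lipid anchor, Gad1 an enzyme of GABA synthesis and Opcml an adhesion molecule of the immunoglobulin family. Cdh13 read 1415 and 1290 in neurons and 30 and 29 in astrocytes, Gad1 1729 and 1614 against 37 and 39, and Opcml 1082 and 1052 against 19 and 20. With 4 arrays in 2 groups such likeness is mainly a like fold, and 60 of 12039 genes lay within a distance of 0.5.

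Of 10 paralogs of the members 7 had a probe set of their own, and these 7 passed the filter and were called higher in neurons. For 6 of the 7, all but Ank1, no astrocyte array reached its median, so that the filter set their direction and the count of 7 says nothing of the list; over all genes tested 7.39% passed through the neuron arrays alone. Cntn5, a contactin of sensory and cortical circuits, read 331 and 325 in neurons and 3 and 6 in astrocytes, at least 20.5-fold higher (adjusted p = 7.92e-07). Cntn6 read 248 on both neuron arrays and 18 and 4 in astrocytes (3.54 ± 0.29, adjusted p = 1.56e-05). Cntnap4, of the Caspr group, read 274 and 229 against 27 and 25 (2.77 ± 0.19). Ank1, which encodes the ankyrin first known from red cells, read 170 and 134 against 28 and 57 (1.62 ± 0.28). On the astrocyte arrays none of the 7 read above 57.

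Of 24 genes for spectrins, ankyrin-linked channels and the cytoskeleton of the initial segment, 18 were tested and 17 were higher in neurons. That is 94.4%, where 31.0% of all genes were called so. Of these 17, 7 passed the filter through the neuron arrays alone, Kcnq3, Scn3a and Sptbn4 among them, so that the filter set their direction. These 7 are 38.9% of the 18 tested, beside 7.39% over all genes. Kcnq3, a subunit of the slow potassium channel that ankyrin-G holds at the initial segment, read 1262 and 709 in neurons and 4 and 2 in astrocytes, at least 61.6-fold higher (adjusted p = 6.18e-07). The sodium channel gene Scn3a was at least 27.3-fold higher, at 407 and 467 against 7 and 1. Sptbn1, the beta-spectrin of most cells, read 5159 and 5374 in neurons and 5215 and 5135 in astrocytes and did not pass (0.02 ± 0.09, adjusted p = 0.841), its sign turning under other scalings. Sptbn4, the beta-spectrin of initial segments and nodes, named after its values were seen, read 115 and 119 against 2 and 21 (2.55 ± 0.37, adjusted p = 0.000421).

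Of 24 extracellular partners 21 were tested, 10 with more signal in neurons and 8 with more in astrocytes, or 47.6% and 38.1%, where 31.0% and 31.1% of all genes were called. The median of the list was 0.07, beside 0.02 over all genes, and Lgi1 was 1 of 2 that passed the filter through the neuron arrays alone. Aplp1, of the amyloid precursor family, read 2000 and 1746 in neurons and 87 and 69 in astrocytes (4.38 ± 0.15, adjusted p = 2.10e-07), and the secreted Lgi1, which acts through the Adam22 protein, read 458 and 291 against 21 and 18 (3.56 ± 0.24). Without probe sets that match several transcripts, Aplp1 had 3.15. In the other direction the growth factor receptor gene Fgfr1 read 151 and 131 in neurons and 971 and 892 in astrocytes (-2.62 ± 0.14, and -1.70 without such probe sets). Tnc, the matrix protein tenascin-C, read 152 and 211 against 1048 and 1180 (-2.55 ± 0.17). Prnp, the prion protein gene, was bright in both, at 4280 and 4527 against 7206 and 8261 (-0.81 ± 0.11).

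Of 24 cytoplasmic linkers, kinases and sheddases 22 were tested, 9 higher in neurons and 9 in astrocytes (40.9% each), with a median of 0.05. As over all genes, where 31.0% and 31.1% were called, calls went both ways. Dcx, a microtubule protein that can bind neurofascin, was at least 182-fold higher in neurons, at 2471 and 3350 against 3 and 1. Dcx was the 1 gene of this list that passed the filter through the neuron arrays alone, so that the filter set its direction. Kif5a, a kinesin of axonal transport, read 2694 and 2592 against 13 and 46 (6.10 ± 0.32, adjusted p = 1.36e-06), with 5.50 without astrocytes replicate 1 and 6.70 without astrocytes replicate 2. The genes for moesin and ezrin, which tie L1 to actin, were higher in astrocytes: Msn read 69 and 81 in neurons and 1552 and 1550 in astrocytes (-4.16 ± 0.14), and Ezr 258 and 313 against 2180 and 2075 (-2.85 ± 0.13). With its probe sets averaged, Ezr had -1.38. Ctnnb1, the beta-catenin gene, was the brightest of this list and slightly higher in astrocytes (-0.31 ± 0.11, adjusted p = 0.0332), a call lost without either neuron array or without astrocytes replicate 2 (adjusted p from 0.119 to 0.217), with dim probe sets kept in (0.117) and with an untrended variance (0.144).

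**Figure D4:**
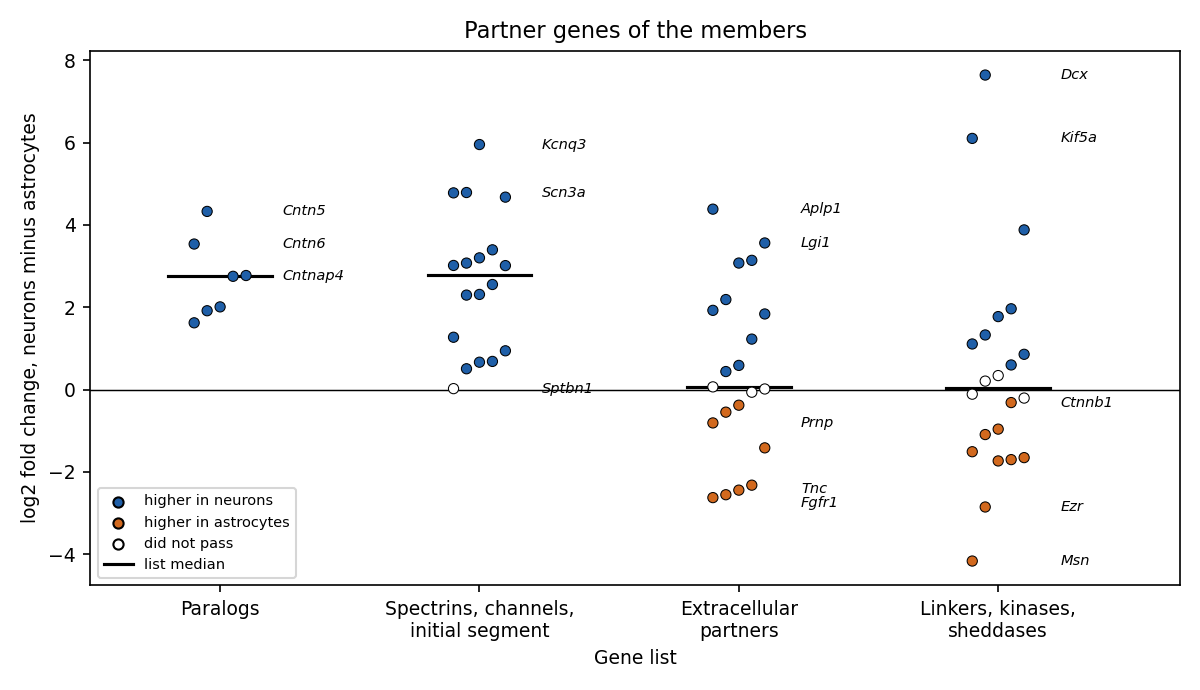
Log2 fold change, neurons minus astrocytes, of the tested genes of each partner list (1 point a gene, blue higher in neurons, orange higher in astrocytes, white did not pass, bar for the list median). The 7 paralogs and 17 of 18 spectrin, channel and initial segment genes lie above 0 and were called, but 6 of the 7 and 7 of the 17 passed the filter on dim signals through the neuron arrays alone; the other 2 lists spread to both sides of 0 with medians of 0.07 and 0.05.

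The cell makeup of the cultures bears on every member, since in bulk RNA fewer cells of a type and less RNA per cell cannot be told apart. The sums given below add signals of different probe sets, so bright probe sets weigh most in them and they do not measure cell content. All 10 neuron markers were called higher in neurons, beside 31.0% of all genes. Of these, 5 were kept through the neuron arrays alone (50%, beside 7.39% of all genes), so that the filter set their direction. The signals of all 10 summed to 33863 and 33662 in neurons and to 3135 and 2948 in astrocytes. In astrocytes 7 of these 10 still read above background on at least 1 array, among them Map2 (1487 and 1269) and Stmn2 (1465 and 1485), but Snap25, Dcx and Nefm were not. The part of neurons in the astrocyte signal of Ank2 and Chl1 was not tested. Tubb3 read 2875 and 3021 in neurons and 68 and 63 in astrocytes, and Gfap 2 and 109 against 1744 and 2133. The log2 fold change of Gfap was -5.53 ± 0.77, and from -7.06 to -4.00 with 1 array left out. Its call was lost in 2 of 15 alternatives. Of 8 tested oligodendrocyte lineage markers of 12, 5 were higher in neurons, led by Pdgfra (1177 and 1302 against 19 and 21) and Mbp (420 and 431 against 16 and 16), and 2 in astrocytes. That is 62.5% and 25%, beside 31.0% and 31.1% of all genes. Of the 8, 4 passed the filter through the neuron arrays alone, Pdgfra and Mbp among them, so that the filter set their direction. The summed signal of the oligodendrocyte lineage list was 5804 and 5272 in neurons and 5578 and 6180 in astrocytes. Of this, Olig1 gave 2899 and 1895 against 3500 and 3997. Mag and Mog were not above background in either culture. The part of oligodendrocyte lineage cells in the neuronal signal of Nfasc, Chl1 and Cntn1 was not tested. All 10 astrocyte markers were above background on at least 1 neuron array, where they summed to 8818 and 10008, against 17914 and 17929 in astrocytes. Of these 10, 7 were called higher in astrocytes and 2 higher in neurons: Slc1a2, a glutamate transporter (1832 and 1865 against 431 and 379), and Aldoc, an aldolase (2574 and 3422 against 1842 and 2076). S100b was not called. The calls made up 70% and 20% of this list, beside 31.1% and 31.0% of all genes. Olig2 did not pass (adjusted p = 0.214), Aif1 and Pecam1 were too dim, and the fibroblast and meningeal list summed to 541 and 582 in neurons and 4571 and 4707 in astrocytes. Of its 8 genes 6 were called higher in astrocytes (75%, beside 31.1% of all genes), led by Islr (29 and 32 against 2465 and 2689). Lum was called higher in neurons (40 and 45 against 23 and 17), and Dcn was not called. Through the astrocyte arrays alone 3 of the 8 passed the filter, Islr among them, and Lum through the neuron arrays alone. The filter thus set the direction of these genes. Over all genes, 847 of 12040 passed through the astrocyte arrays alone and 7.39% through the neuron arrays alone. Col1a1, a fibroblast collagen gene, read 27 and 24 in neurons and 41 and 103 in astrocytes (-1.05 ± 0.35). It ran from -1.60 to -0.49 with 1 array left out. Its call was lost in 4 of 14 alternatives, among them the limma fit with dim probe sets kept in (adjusted p = 0.131). The endothelial and mural list summed to 177 and 556 in neurons and 7367 and 8219 in astrocytes, nearly all of it from the smooth muscle genes Acta2 (4544 and 4791) and Tagln; Kdr and Rgs5 were not called, and Pecam1, Cldn5 and Tek were too dim to test. The microglia list summed to 111 and 167 against 670 and 706. Of its 8 genes 4 were tested, and 3 of these were called higher in astrocytes (75%, beside 31.1% of all genes). They were C1qa (2 and 2 against 124 and 156), Ctss (3 and 28 against 295 and 272) and Csf1r, while Cx3cr1 was not called. Of the 4, 3 passed the filter through the astrocyte arrays alone, C1qa and Ctss among them, so that the filter set their direction. The progenitor list summed to 10611 and 10119 against 13280 and 13150. Most of the progenitor sum came from Fabp7 (8615 and 8404 against 7941 and 8150), which was not called. Nes, Pax6 and Sox2 were called higher in astrocytes, and Mki67 (468 and 298 against 13 and 16) and Hes5 higher in neurons. The calls made up 50% and 33.3% of the progenitor list, beside 31.1% and 31.0% of all genes. Mki67 and Hes5 passed the filter through the neuron arrays alone, so that the filter set their direction. The part of fibroblast and meningeal, endothelial and mural, microglial and progenitor cells in the members' astrocyte signal was not tested.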

How the data were processed

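The authors deposited 1 linear intensity per probe set and array, MAS5 being the tool that the submitters' processing notes name, without a version. RNA was labelled from 50 ng through 2 cycles of cDNA synthesis, per the labels' protocols, which can favour the 3′ ends of transcripts. Of 45101 probe sets, 64 controls were left out. Symbols came from the platform annotation and were updated by Entrez identifier for 34741 probe sets. The authors' scaling was kept, and values were compared as log2(signal + offset), which understates the folds of dim genes. The 25019 probe sets with at least 2 of 4 arrays at or above the median were fitted by lmFit and trended eBayes of limma 3.58.1, under R 4.3.3 (two-sided, Benjamini-Hochberg). A gene was read by its brightest kept probe set. Background was each array's highest signal among 27 Bacillus subtilis controls; where neither array of a group exceeded it, the fold is "at least", against the mean control signal. The fit was tested on simulated data with 200 of 25019 probe sets changed. It recovered 35.8% of 2-fold, 97.0% of 4-fold and 100% of 8-fold changes, and 2.52% of its calls were false. Fewer probe sets were changed there than were called here, so these shares may not carry over.

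Members and gene lists were chosen with earlier results of these data known. All member probe sets are named; from each partner list the rule named the 2 largest changes in each direction and the highest mean, and the 3 profiles nearest to the member with the largest fold. Ank1 and Sptbn4, and single marker genes other than Tubb3, Gfap, Olig2, Aif1, Col1a1 and Pecam1, were named after their values were seen. The labels call the replicates biological, without naming the animals. Standard errors and p-values draw on the spread between these cultures and, more heavily, on the variance trend over all probe sets. The residual degrees of freedom were 2, beside a median of 6.27 from the trend. The 2 arrays per group limit the precision: log2 fold changes had a median standard error of 0.20 over probe sets. The correlation of log2 values was 0.980 between neuron and 0.983 between astrocyte replicates, against 0.669 to 0.682 between groups. Alternatives covered the filter, offset, scaling, probe set choice, variance model, each array left out and a replicate block.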

Additional observations from a re-analysis of the deposited data

How the results depend on the processing

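Across the 15 alternatives the tested members gave 134 comparable values, of which 129 kept both direction and side of the threshold and 5, all of the brightest Cntnap2 probe set, kept the direction and missed it. Fewer calls are made with 3 arrays: 8 members, 17 to 19 member probe sets, 33 to 38 partner genes higher in neurons and 14 or 15 higher in astrocytes were called, beside 9, 20, 43 and 17 with all 4, and 0 members or member probe sets were higher in astrocytes in any of these fits. Over all genes 2557 to 2668 were then called higher in neurons and 2493 (without astrocytes replicate 2) to 2992 higher in astrocytes, beside 3737 and 3749. Among the members' tested probe sets only the dimmest of Ank2 turned, to 0.022 without astrocytes replicate 1 and as low as -0.53 without another array. Sptbn1 turned to -0.060 with quantile normalization and -0.082 with median centring, and lay between -0.0044 and 0.054 with 1 array left out; none of these passed. Median centring moved the median of all genes from 0.02 to -0.09. Averaging a gene's probe sets gave 0.76 for Ank2 (1.21 by the brightest), 3.47 for Ank3 (4.85) and 1.38 for Cntnap2 (0.46). The filter at the 75th percentile left out Cntn2. Same-numbered deviations had a correlation of -0.09 over the kept probe sets, which cannot show whether same-numbered cultures were prepared as pairs. With replicate numbers as a block, 9 members, 43 partner genes, and 3677 and 3727 of all genes were called. Signals near background limit Cntn2 and Cntnap1 most.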
